A study of Arabidopsis thaliana with 6 samples.

Results

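MGL (AT1G64660) encodes methionine gamma-lyase and FDH (AT5G14780) encodes formate dehydrogenase, and both were measured in Arabidopsis suspension cells with and without induction of the transcription factor ATHB8. They are 2 of the 16550 genes named on the array, and each has 1 row of its own. The rows were found through the gene symbol and gene number in the array's annotation. The symbol FDH is shared in Arabidopsis with FIDDLEHEAD (KCS10, AT2G26250), an enzyme of long-chain fatty acid synthesis. The gene number of the FDH row belongs to AT5G14780, so the row reports formate dehydrogenase, and no row is annotated to FIDDLEHEAD. The pair was chosen with its differences between induced and uninduced cells already known. The values of MGL and FDH are therefore a description without a p-value. The pathway genes and chromosomal neighbours set beside them were tested.

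Methionine gamma-lyase splits methionine into methanethiol, ammonia and 2-oxobutanoate, and the last of these can enter isoleucine synthesis. Methionine otherwise goes mostly into protein and into S-adenosylmethionine, the cell's methyl donor. Formate dehydrogenase is a mitochondrial enzyme that oxidises formate to CO2 with NAD. Formate can also be joined to tetrahydrofolate and so enter one-carbon metabolism. In plants the RNA of both enzymes is known to respond to stress, MGL to water deficit and FDH to low oxygen and iron deficiency among others.

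All 6 arrays held total RNA from dark-grown suspension cells of a culture labelled Alex, carrying an ATHB8-GFP fusion under an estrogen-inducible system. Induction meant 24 h with 5 µM estrogen (3 samples), and uninduced cells were sampled at the same 24 h with no estrogen added (3 samples). ATHB8 is a class III homeodomain leucine zipper factor known from procambium, and the study asked which genes lie downstream of it. No row is annotated to ATHB8, so its induction could not be read from the arrays. The 2 groups share the transgene, and no line without it was analysed here, so effects of ATHB8 and of estrogen itself cannot be told apart. The labels do not say whether the replicates were separate cultures. If they were not, errors and p-values reflect the scatter of these 6 samples alone, possibly of technical origin.

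The deposited values are log2 signals, with a median per array between 5.80 and 5.95. Both replicate 1 arrays stood apart from the other 4 on the first principal component (41.4% of the variance) and held equal values in 31.8% of the 38408 rows. MGL and FDH are not among those rows, and neither shares its 6 values with another row. No marker list defines suspension cells here. Of the markers of other cells, 1 of 9 photosynthetic, 0 of 7 xylem and 0 of 5 phloem genes had a row under their name, so the labelled cell type could not be checked. The 1 measured marker, RCA (Rubisco activase), had a log2 signal of 5.72 ± 0.14 in induced and 5.13 ± 0.18 in uninduced cells (SD, n = 3 each; limma adjusted p = 0.172). Its part in the results below was not tested.

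MGL lay higher in the induced cells on every array. Its log2 signal was 6.51, 6.62 and 6.61 in induced replicates 1, 2 and 3, against 4.08, 4.39 and 4.61 in uninduced replicates 1, 2 and 3. The groups did not overlap, as was the case in this direction for 5.95% of named genes. In 44.4% of named genes induced and uninduced replicate 1 had equal values, so their groups cannot separate. Among the remaining named genes the share is therefore higher, here and wherever such a share is given below. The lowest induced array of MGL stood 1.89 above its highest uninduced array. The means were 6.58 ± 0.06 in induced and 4.36 ± 0.27 in uninduced cells (SD, n = 3 each). The log2 difference was 2.22 ± 0.16 (SE from the fit over all rows), a 4.65-fold difference with a 95% interval from 3.56-fold to 6.07-fold. The spread lay mostly in the uninduced cells, where replicate 1 was lowest and replicate 3 highest. The 3 induced arrays lay within a narrow band. In bulk RNA a larger share of cells with the transcript and more transcript per cell cannot be told apart. Between same-numbered arrays MGL was 5.38-fold, 4.70-fold and 3.99-fold higher in pairs 1, 2 and 3.

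FDH also lay higher in all 3 induced arrays, by a smaller amount. Its log2 signal was 7.87, 7.80 and 7.80 in induced replicates 1, 2 and 3, against 6.39, 6.06 and 6.14 in uninduced replicates 1, 2 and 3. The lowest induced array stood 1.40 above the highest uninduced one, so the groups did not overlap, as for 5.95% of named genes. The means were 7.82 ± 0.04 in induced and 6.20 ± 0.17 in uninduced cells (SD, n = 3 each). The log2 difference was 1.62 ± 0.12 (SE), which is 3.08-fold with a 95% interval from 2.50-fold to 3.79-fold. Same-numbered arrays differed by 2.79-fold, 3.32-fold and 3.16-fold in pairs 1, 2 and 3. As for MGL, the induced arrays lay closer together than the uninduced ones.

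**Figure D1:**
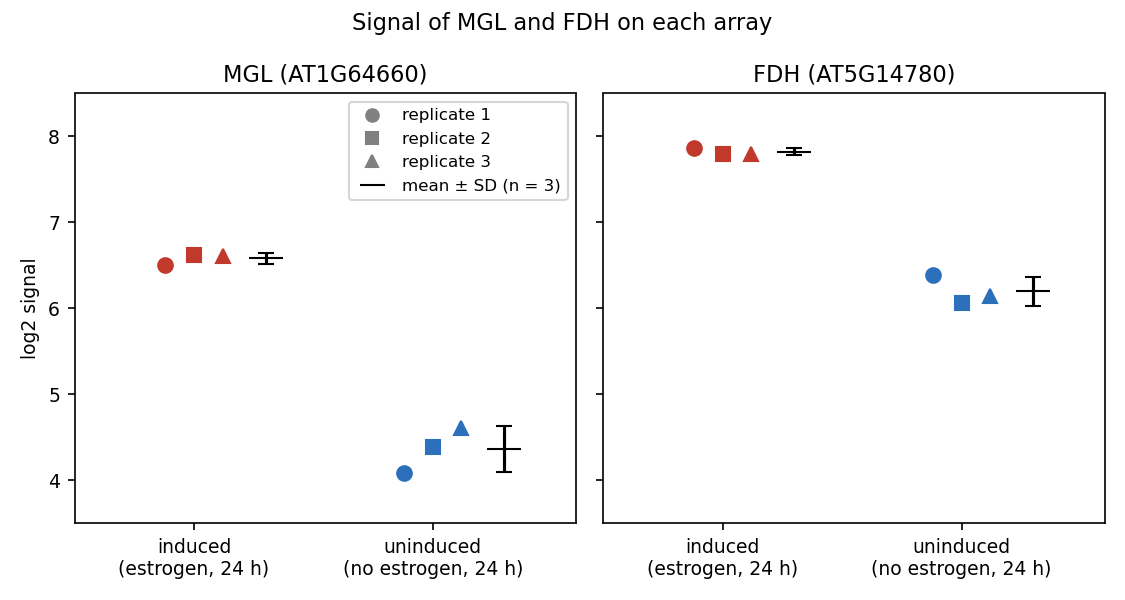
Log2 signal (vertical axis) of MGL (left panel) and FDH (right panel) on each array, with induced arrays left of uninduced ones, 1 symbol per replicate and black bars for the mean ± SD (n = 3). MGL spans 6.51 to 6.62 in induced and 4.08 to 4.61 in uninduced cells, and FDH spans 7.80 to 7.87 in induced and 6.06 to 6.39 in uninduced cells; levels of different genes on an array are not comparable.

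The log2 difference of MGL exceeded that of FDH by 0.60, and by 0.95, 0.50 and 0.34 in pairs 1, 2 and 3. The pairs thus agreed on which gene differed more and spread widely on how much more. The replicate 1 arrays moved the genes in opposite directions. In MGL, replicate 1 lay below the mean of replicates 2 and 3 by a log2 difference of -0.11 in induced and -0.42 in uninduced cells. In FDH, replicate 1 lay above that mean by 0.07 in induced and 0.29 in uninduced cells. Without both replicate 1 arrays the log2 difference was 2.11 ± 0.12 for MGL and 1.70 ± 0.10 for FDH (SE, n = 2 per group).

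Among the 16550 named genes ordered by their log2 difference, MGL ranked 26 and FDH ranked 61 from the top. This order is part of what chose them and is given only to place them. The within-group SD was 0.20 for MGL, at percentile 43.2 of all rows, and 0.12 for FDH, at percentile 22.5. The mean of MGL stood at percentile 58.0 of all rows in induced and percentile 33.2 in uninduced cells. For FDH these were percentile 71.6 in induced and percentile 53.9 in uninduced cells. No background level was analysed here, so the uninduced signal of MGL is not shown to lie above background, and its fold rests on that signal.

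**Figure D2:**
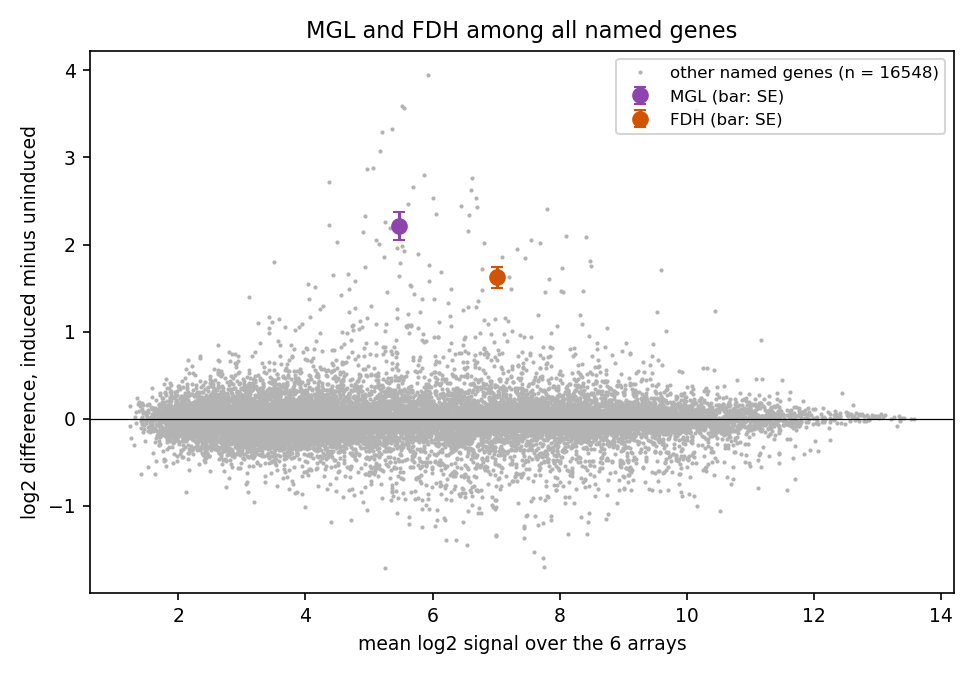
Log2 difference, induced minus uninduced (vertical axis), against the mean log2 signal over the 6 arrays (horizontal axis) for the named genes (grey points), with MGL and FDH as large points with SE bars. MGL at 2.22 and FDH at 1.62 lie among the upper scatter of points, above a dense band of genes around 0.

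Differences of this size were not seen in the measured genes beside MGL and FDH on their chromosomes. Of the 4 genes on each side of MGL in RefSeq order, 4 had a named row, and of those around FDH 2 had one. Of these 6, 0 passed in limma, against 0.961% of all rows and 1.13% of named genes at an adjusted p of 0.05. At an unadjusted p under 0.05 there were also 0 of 6, against 8.72% of named genes. AT1G64650, next to MGL, had log2 signals of 10.83, 10.82 and 10.90 in induced replicates 1 to 3, against 10.83, 10.75 and 10.66 in uninduced replicates 1 to 3. AT5G14770 and AT5G14790, on either side of FDH, differed by 0.06 ± 0.17 and -0.03 ± 0.11 on the log2 scale (SE). Over the 6 neighbours the log2 difference ran from -0.12 to 0.10. In all of them except AT5G14770, induced and uninduced replicate 1 had the same rounded value, so those differences rest on replicates 2 and 3. Replicate 1 values were equal in 44.4% of named genes. On the other side of MGL lies BDG1, a gene of cuticle formation, whose RefSeq span overlaps that of MGL. BDG1 has no named row, so its level is not given.

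Of the 7 genes listed for methionine synthesis and 12 for the methyl cycle only 1 and 2 had a named row, and 0 of these passed in limma, against 1.13% of named genes. CBL (cystathionine beta-lyase), which makes homocysteine on the way to methionine, had log2 signals of 9.65, 9.29 and 9.18 in induced replicates 1 to 3, against 9.65, 9.16 and 9.09 in uninduced replicates 1 to 3. Its log2 difference was 0.07 ± 0.20 (SE; limma adjusted p = 1.0), with a 95% interval from -0.42 to 0.56. MMT, which turns methionine into S-methylmethionine, lay higher in all 3 induced arrays by only 0.16 ± 0.10 (adjusted p = 0.864). Such a separation was seen in 5.95% of named genes. HMT-1, which passes the methyl group from S-methylmethionine to homocysteine, differed by -0.31 ± 0.17 (adjusted p = 0.805). No methionine synthase or S-adenosylmethionine synthetase of the lists was among the measured genes.

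Both measured salvage genes, of 9 listed, lay higher in the induced cells without passing the test. Salvage rebuilds methionine from the methylthio group left by ethylene and polyamine synthesis, and ATARD2 and ARD4 belong to its acireductone dioxygenases. ATARD2 had a log2 mean of 7.13 ± 0.29 in induced and 6.72 ± 0.32 in uninduced cells (SD, n = 3 each). ARD4 had 8.30 ± 0.29 in induced and 7.93 ± 0.29 in uninduced cells. Their differences of 0.41 and 0.37 had limma adjusted p of 0.805 and 0.832, and in both genes the groups overlapped. Within same-numbered pairs 1, 2 and 3 the induced array was higher each time, by 0.36, 0.48 and 0.39 for ATARD2 and by 0.36, 0.29 and 0.46 for ARD4. With the replicate number as a block their adjusted p was 0.119 and 0.150. AT1G12010, the 1 measured gene of 14 listed for ethylene synthesis, differed by -0.15 ± 0.25 (SE; adjusted p = 1.0).

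Isoleucine synthesis, which can take up the 2-oxobutanoate that MGL releases, showed no called change in 3 measured genes of 14 listed. The share called was 1.13% of named genes. AT3G23940, AT3G58610 and AT2G31810 differed by 0.00, -0.03 and -0.05 on the log2 scale. AT2G31810 had the tightest values, with a mean of 9.75 ± 0.01 in induced and 9.80 ± 0.01 in uninduced cells (SD, n = 3 each; limma adjusted p = 1.0).

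Branched-chain amino acid breakdown had the most measured genes on the methionine side, 8 of 18 listed. Of these 8, 0 passed in limma, against 1.13% of named genes. All 8 lay higher in the induced cells, with a median log2 difference of 0.16, against -0.01 over all named genes, of which 46.8% lay higher. D2HGDH, which oxidises D-2-hydroxyglutarate in mitochondria, came closest. Its log2 signal was 7.68, 7.72 and 7.59 in induced replicates 1 to 3, against 7.01, 7.25 and 7.15 in uninduced replicates 1 to 3. The difference of 0.52 ± 0.11 (SE) had an adjusted p of 0.133. Testing only rows at or above the median signal called 827 of them, against 369 over all rows, so a larger share of rows was called. This setting gave D2HGDH an adjusted p of 0.0319. Over all 16 alternatives its adjusted p ran from 0.0319 to 0.490. ETFQO, which passes electrons from such dehydrogenases to ubiquinone, showed a difference of 0.19 ± 0.11 (adjusted p = 0.847). Its groups did not overlap, as was the case in this direction for 5.95% of named genes. ALDH6B2, of valine breakdown, differed by 0.16 ± 0.11 (adjusted p = 0.953), and AT4G20930 by 0.31 ± 0.15 (adjusted p = 0.720). Of 19 other genes of amino acid breakdown 3 were measured and 0 passed, again against 1.13% of named genes. The ornithine aminotransferase DELTA-OAT differed by 0.23 ± 0.22, the lysine breakdown gene AT4G33150 (LKR/SDH) by 0.00 ± 0.10 and AT5G38710 by -0.37 ± 0.21.

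On the formate side 13 of 40 listed genes were measured and 0 passed in limma, against 1.13% of named genes, so that 0 of 13 is near the general share. THFS, which uses formate by joining it to tetrahydrofolate, had log2 signals of 9.94, 9.92 and 10.04 in induced replicates 1 to 3, against 9.88, 9.87 and 9.98 in uninduced replicates 1 to 3. Its difference was 0.06 ± 0.10 (SE; adjusted p = 1.0), with a 95% interval from -0.19 to 0.30. Each induced array of THFS thus stood slightly above its same-numbered uninduced array, within the spread of either group. 5-FCL, which recycles 5-formyltetrahydrofolate, differed by 0.07 ± 0.14 (adjusted p = 1.0).

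The other folate genes carry only locus codes here. AT5G47435 had log2 signals of 6.59, 6.63 and 6.62 in induced replicates 1 to 3, against 6.54, 6.29 and 6.04 in uninduced replicates 1 to 3. It was the only 1 of the 7 measured folate genes whose groups did not overlap. Of named genes 5.95% did not overlap in this direction and 6.99% in the other. The difference of AT5G47435, 0.32 ± 0.15 (SE), did not pass (adjusted p = 0.679). AT4G17360 differed by 0.31 ± 0.25 (adjusted p = 0.997), AT3G12290 by 0.11 ± 0.11 and AT4G00600 by -0.24 ± 0.21 (adjusted p = 1.0 for both). The 7 folate genes had a median difference of 0.09, against -0.01 over all named genes. Of these 7 genes 6 lay higher, against 46.8% of named genes. In 3 of the 7 induced and uninduced replicate 1 had the same value, so those differences rest on replicates 2 and 3.

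Of the glycine decarboxylase and photorespiration genes 5 of 14 were measured, with differences from -0.07 to 0.22. The highest was that of AT2G35120, at 0.22 ± 0.17 (SE; limma adjusted p = 0.986). HPR (hydroxypyruvate reductase), of the same dehydrogenase family as FDH, differed by 0.13 ± 0.13 (SE; limma adjusted p = 1.0). Of 9 further genes listed for serine synthesis and relatives of FDH 2 were measured. AT1G79870 differed by 0.06 ± 0.11 (adjusted p = 1.0). AN, a more distant relative that shapes cell form, gave a difference of -0.20 ± 0.10 (adjusted p = 0.728). Its induced arrays were all below its uninduced arrays, a pattern of 6.99% of named genes. AT5G17380, the only measured 1 of 4 genes listed for formaldehyde and oxalate breakdown, differed by 0.09 ± 0.20 (adjusted p = 1.0).

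Over the methionine and formate sides together 33 of 133 listed genes were measured, and 0 rose and 0 fell in limma, against 1.13% of named genes called in either direction. At an unadjusted p under 0.05 there was 1 of 33, against 8.72% of named genes. The count called is thus near the general share and says nothing particular to these pathways. The 95% intervals of 32 of the 33 differences stayed within 2-fold either way. The exception was AT1G21400, whose interval ran from -0.92 to 1.11 on the log2 scale in this fit without a block. Its pairs 1, 2 and 3 differed by 0.23, 0.11 and -0.06. With the replicate number as a block its SE was 0.09, against 0.42 without it. The median difference of the 33 genes was 0.09, against -0.01 over all named genes. Of the 33 genes 24 lay higher and 9 lower, against 46.8% of named genes higher. In replicates 2 and 3 alone the median was 0.12 and 23 of 33 lay higher, against 47.6% of named genes. In 8 of the 33 genes induced and uninduced replicate 1 had the same value, a smaller share than the 44.4% of named genes. The other 100 listed genes without a named row were not analysed here, among them every listed S-adenosylmethionine synthetase and serine hydroxymethyltransferase.

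**Figure D3:**
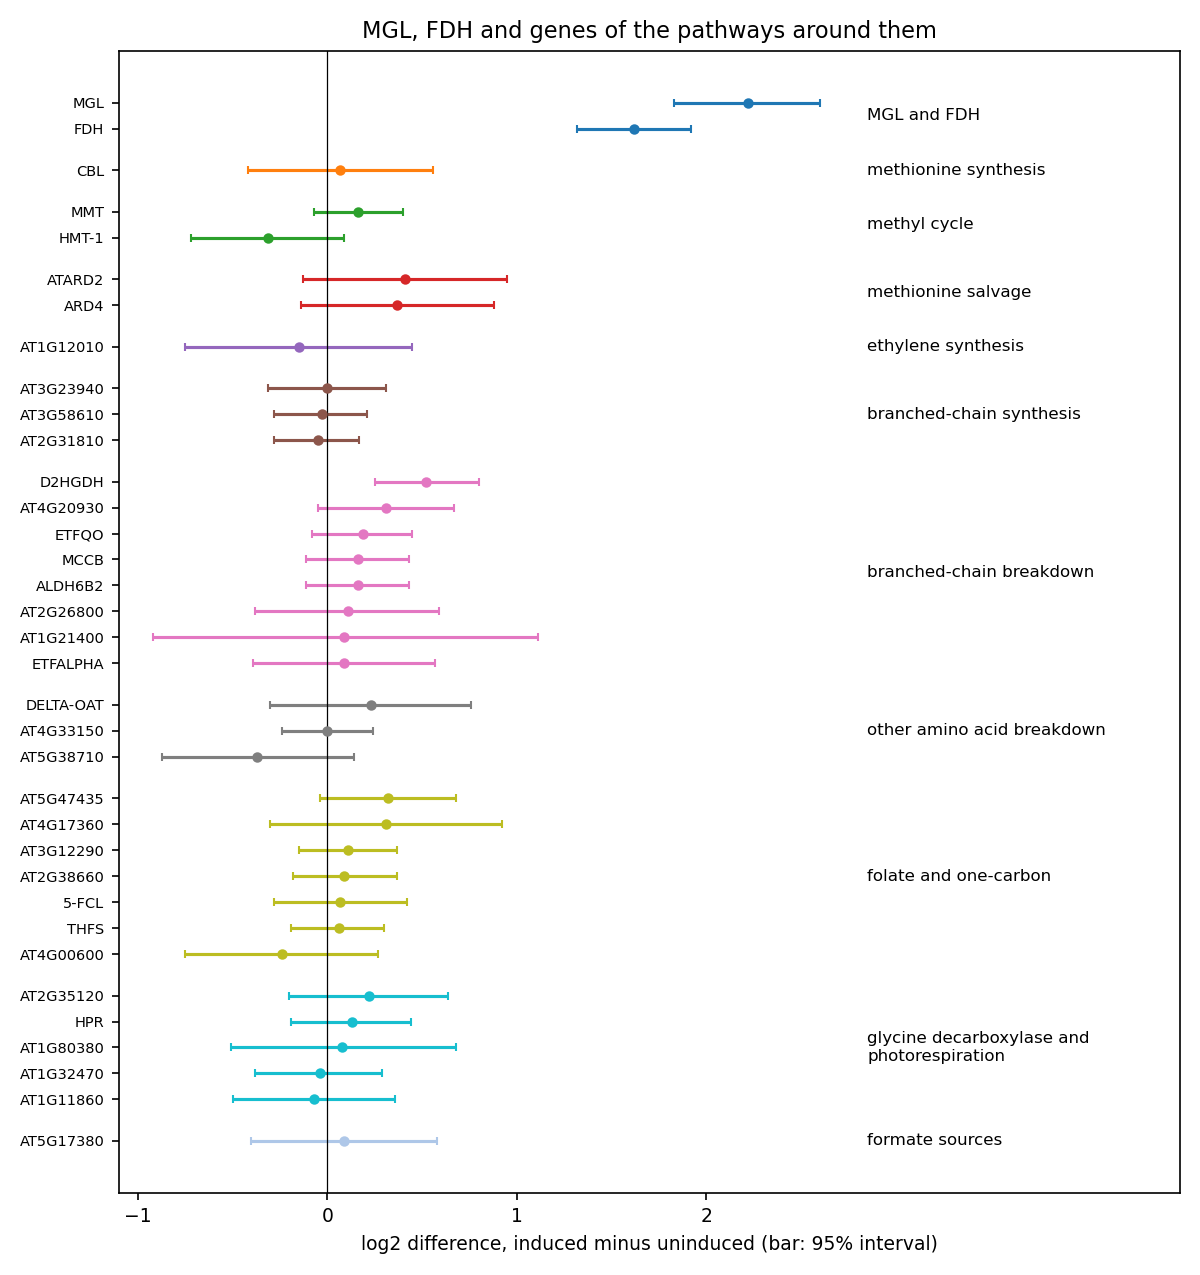
Log2 difference, induced minus uninduced, with its 95% interval (horizontal axis) for MGL, FDH and the 33 measured genes of the listed pathways, grouped by pathway down the page. MGL at 2.22 and FDH at 1.62 stand apart to the right, while the pathway genes lie between -0.37 and 0.52.

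Genes that mark conditions under which MGL or FDH are known to respond were listed after the differences of the pair had been seen, and few had a named row. For iron deficiency 3 of 16 were measured and 0 passed in limma, against 1.13% of named genes. The regulator PYE differed by 0.07 ± 0.11 (SE; adjusted p = 1.0) and BHLH101 by 0.35 ± 0.17 (adjusted p = 0.743). Induced and uninduced replicate 1 of BHLH101 had the same value. For low oxygen 4 of 15 were measured and 0 passed, again against 1.13% of named genes. AT3G10040 (HRA1), an attenuator of the low-oxygen response, had a mean of 5.20 ± 0.19 in induced and 5.76 ± 0.51 in uninduced cells (SD, n = 3 each; adjusted p = 0.707), and the fermentation gene PDC2 differed by -0.14 ± 0.11 (adjusted p = 0.997).

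For water stress and abscisic acid 4 of 19 genes were measured and 0 passed, against 1.13% of named genes. The dehydrin COR47 had log2 signals below the uninduced ones in all 3 induced arrays, with means of 5.64 ± 0.11 in induced and 6.16 ± 0.24 in uninduced cells (SD, n = 3 each). Such a separation was seen in 6.99% of named genes. The difference of COR47, -0.53 ± 0.15 (SE), had an adjusted p of 0.302. KIN1, KIN2 and COR15A differed by -0.04, -0.05 and 0.07. In each of them induced and uninduced replicate 1 had the same value, as in 44.4% of named genes. For sulfur assimilation 2 of 19 were measured, and SIR (sulfite reductase) and APS3 (ATP sulfurylase) differed by 0.08 and 0.05, each with an adjusted p of 1.0. SIR also had the same value in induced and uninduced replicate 1. Of 13 dark and starvation genes 4 were measured and 1 rose, the sugar carrier SAG29, by 3.54 ± 0.13 (SE; limma adjusted p = 7.86e-04). The share called in either direction was 1.13% of named genes. SAG29 was listed with its rise known, so it is no independent evidence. PPDK, SAG101 and AKINBETA1 of the same list differed by 0.35, -0.36 and -0.02.

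The genes nearest to MGL over the 6 arrays were AT5G17760, AT1G20530, AT3G15720 and AT3G62570. Likeness was the root mean square difference between log2 signals after each gene's own mean was taken off, over all named genes. It was 0.14, 0.15, 0.16 and 0.19 for these 4 genes. AT5G17760 had log2 signals of 5.86, 6.30 and 6.25 in induced replicates 1 to 3, against 3.87, 4.10 and 4.30 in uninduced replicates 1 to 3. In this gene too, uninduced replicate 1 was lowest and uninduced replicate 3 highest, though likeness was judged on these same arrays. Uninduced replicate 2 was highest in AT3G15720 and lowest in AT3G62570. In AT1G20530 uninduced replicate 1 was lowest, and replicates 2 and 3 were equal after rounding. The 4 genes were between 4.05-fold and 5.02-fold higher in the induced cells.

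The genes nearest to FDH were AT3G62280, AT2G28315, AT2G43590 and AT1G21528, at distances of 0.076, 0.095, 0.11 and 0.12. AT3G62280 had log2 signals of 8.67, 8.61 and 8.63 in induced replicates 1 to 3, against 7.10, 7.03 and 6.96 in uninduced replicates 1 to 3. The 4 genes were between 3.05-fold and 3.59-fold higher in the induced cells. MGL and FDH were 0.39 apart, with 44 named genes nearer to MGL and 116 nearer to FDH. With 6 arrays, likeness mostly follows the size of the difference between the groups.

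**Figure D4:**
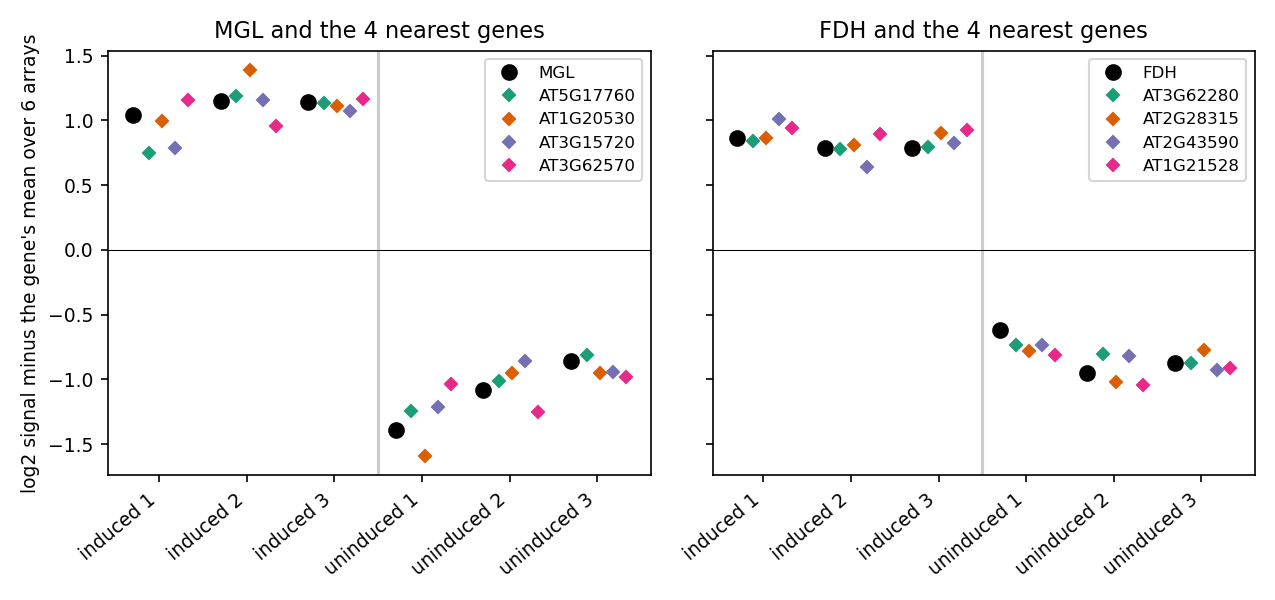
Log2 signal minus the gene's mean over the 6 arrays (vertical axis) on each array (horizontal axis, induced left of uninduced) for MGL (left panel) and FDH (right panel), black circles, with the 4 nearest named genes as coloured diamonds. In both panels the induced points lie above 0 and the uninduced points below 0, and uninduced replicate 1 is the lowest array for MGL and the highest uninduced array for FDH.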

How the data were processed

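RNA from 3 induced and 3 uninduced samples was measured on a whole-transcript array. The deposited values are log2 expression for 38408 rows, and per the submitters' processing notes the authors produced them in Affymetrix Expression Console 1.3. Background correction, normalization and genome build are not given in the sources used here. No further normalization was applied and no coordinates are printed. Rows were named through the platform annotation: 16722 rows name 1 gene, 759 several and 20927 none. Gene numbers were matched to RefSeq loci. For the 146 genes with several rows the row with the highest mean signal was used. Protein and promoter sequences were not used here.

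The comparison used limma 3.58.1 under R 4.3.3 (lmFit, eBayes, two-sided, no block) over all 38408 rows, with Benjamini-Hochberg adjustment at 0.05. The fit was run on simulated data with independent arrays. Those data lack the equal replicate 1 values and the correlation of same-numbered arrays given below, so they do not test the fit under that dependence. An exact permutation test of 3 against 3 arrays cannot go below 0.10. After group means were removed, arrays with the same replicate number correlated at 0.633, 0.268 and 0.248 across rows, all above 0.1, so the replicate block was run as well. Members and lists were chosen with earlier results of these data known. Named are MGL, FDH and FIDDLEHEAD, list members that passed or else up to 4 per list with the smallest p, and the 4 nearest genes of each member. THFS, 5-FCL, AT1G21400, PPDK, SAG101, AKINBETA1 and the chromosomal neighbours were named outside this rule, after their values were seen. The lists for serine and related dehydrogenases, sulfur, iron, low oxygen and water stress were added after the files were seen. Plots used Python 3.11.15 with matplotlib 3.10.9. The number of arrays limits the precision.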

Additional observations from a re-analysis of the deposited data

How the results depend on the processing

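The differences of MGL and FDH kept their sign and moved by less than 1 within-group SD in every alternative that gave a value. MGL ran from 2.08 to 2.35 on the log2 scale over 15 alternatives and FDH from 1.56 to 1.72 over 16, and both ranges are also those of the fits that left out 1 array. MGL gave no value among rows at or above the median signal, since its row lies below that level. With the replicate block the differences were 2.22 ± 0.11 and 1.62 ± 0.08 (SE). Of the 33 pathway genes, 0 were called in 15 of the 16 alternatives. The exception was rows at or above the median signal, where D2HGDH was 1 of 827 rows called, against 369 in the main fit. That setting tested fewer rows than the main fit and left out some of the 33 genes. Its share of rows called was thus higher, and this 1 call says nothing particular to D2HGDH. The number of rows called, 369 as reported, was 242 with the replicate block, 1106 with a block that sets replicate 1 against the others, 827 among rows at or above the median signal, 706 with a trended and robust prior, 977 with array weights, 80 in replicates 2 and 3 alone, and between 48 and 167 when 1 array was left out. The cause of these shifts was not tested. Quantile normalization, median subtraction, averaging the rows of each gene and, chosen after seeing the data, rows that name a single gene gave 353, 355, 369 and 353. Among the 59 measured list genes and chromosomal neighbours the replicate block changed 0 calls, and the genes nearest to MGL and FDH were not tested. The low uninduced signal of MGL and the rows without a gene name limit what the values show.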
